A study of Mus musculus with 6 samples.

Results

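T helper cytokine genes are described here across CD4 single-positive thymocytes, thymic T cells past the stage at which both co-receptors CD4 and CD8 are carried. The set was fixed by name as 10 genes (Ifng, Il2, Il4, Il5, Il13, Il17a, Il21, Il22, Csf2 and Areg), each represented by the probe set annotated to its symbol alone and, where several exist, by the one with the highest mean. It gave 8 measured genes of the 19938 tested, each with 1 probe set. Areg, which encodes the epidermal growth factor receptor ligand amphiregulin, has no probe set listed under its symbol in the annotation used here. Il22, which encodes a cytokine that acts on epithelial cells, shares its 2 probe sets with its near copy Iltifb, and neither could be assigned to 1 gene.

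The arrays compared 3 wildtype with 3 Bach2 knockout samples from male mice on a C57BL/6 background. Lethally irradiated Rag1 knockout males, 8 weeks old, had received equal parts of Ly5.1-positive wildtype and Ly5.1-negative Bach2 knockout bone marrow from donors of the same age, depleted of mature lineages, and CD4 single-positive cells of each genotype were sorted 2 months later. Because of the lesion in Rag1, the T cells of both groups came from donor marrow. The Ly5.1 allele went together with genotype, and no stimulation step is given in the labels. Expression values are on the log2 scale throughout. Bach2 itself had 7.89, 8.20 and 8.05 in wildtype and 6.50, 6.42 and 6.52 in knockout samples, 2.96-fold lower (limma, adjusted p = 0.000156, and 0.0955 without moderation of the spread). The sources used here do not say what part of Bach2 the deletion removed. Of 14 marker genes of CD4 single-positive thymocytes, 12 were measured and all 12 lay above the array background defined below. Cd4 lay between 10.33 and 10.43 on all 6 arrays, whereas Cd8a lay between 7.67 and 7.90 on 5 arrays and at 8.90 on knockout replicate 3.

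Helper T cells are classed by the cytokines they secrete. Type 1 cells make interferon gamma, which activates macrophages. Type 2 cells make interleukins 4, 5 and 13, which act on B cells, eosinophils and epithelium. The genes of these interleukins lie close together on one chromosome. Other helper cells make IL-17A, which recruits neutrophils through tissue cells, or interleukin 21, which acts on B cells in germinal centres. In naive T cells these genes are kept nearly silent, and they are transcribed after antigen receptor signals through NFAT, AP-1 and lineage factors such as Tbx21 and Gata3. Bach2 is a transcriptional repressor that binds DNA elements with an AP-1-like core and is known for restraining effector programmes in T cells. The comparison therefore asked whether any helper cytokine gene was released in thymocytes that lack it.

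The sequences before the transcription starts of 4 members are given to show the letters that such factors read. They are the 3 members whose signal was above array background (Il4, Il13 and Csf2) and Il17a, the 1 member with a match to the heptamer TGANTCA. Sequences are those of RefSeq on GRCm38.p6, the 250 bases before the start, 5′ to 3′ on the strand of the gene. Capitals mark TGANTCA, with any base at N, and GGAAA, the core read by NFAT, each on either strand. TGANTCA is looser than the AP-1 core that Bach2 elements share, which has C or G at N. The Il4 window is chr11:53618666-53618915 on the minus strand.
Il4: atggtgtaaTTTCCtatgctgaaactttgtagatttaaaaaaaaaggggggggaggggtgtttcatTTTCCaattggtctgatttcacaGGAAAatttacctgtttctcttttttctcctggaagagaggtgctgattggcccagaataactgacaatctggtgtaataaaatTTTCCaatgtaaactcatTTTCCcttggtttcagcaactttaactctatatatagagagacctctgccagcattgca
The Il13 window is chr11:53634703-53634952 on the minus strand.
Il13: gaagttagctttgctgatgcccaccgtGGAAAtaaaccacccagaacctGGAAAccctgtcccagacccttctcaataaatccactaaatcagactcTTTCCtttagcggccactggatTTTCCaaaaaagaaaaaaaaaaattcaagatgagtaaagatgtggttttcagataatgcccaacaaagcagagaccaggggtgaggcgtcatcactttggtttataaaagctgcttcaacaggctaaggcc
The Csf2 window is chr11:54249900-54250149 on the minus strand.
Csf2: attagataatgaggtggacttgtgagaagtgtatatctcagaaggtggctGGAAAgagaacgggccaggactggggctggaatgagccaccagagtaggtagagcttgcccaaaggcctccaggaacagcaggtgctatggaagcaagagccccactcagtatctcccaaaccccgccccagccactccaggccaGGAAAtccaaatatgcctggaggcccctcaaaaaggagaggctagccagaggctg
The Il17a window is chr1:20730655-20730904 on the plus strand.
Il17a: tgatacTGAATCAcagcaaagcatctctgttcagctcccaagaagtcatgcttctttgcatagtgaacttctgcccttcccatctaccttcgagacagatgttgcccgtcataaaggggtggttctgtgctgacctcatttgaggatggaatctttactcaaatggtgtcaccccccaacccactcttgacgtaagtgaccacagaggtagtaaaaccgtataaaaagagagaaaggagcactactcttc

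Windows were found for all 10 genes, though that of Il22 precedes an annotated start inside the gene and not its outermost one. The heptamer TGANTCA was present in 1 of the 10, that of Il17a, 244 to 238 bases before the start. There it reads TGAATCA, with A at N, so none of the 10 windows held the AP-1 core itself. With any base at N, the heptamer was present in 6.75% of the 32851 windows of the same length. The same heptamer preceded by TGC, a loose form of the extended element of Bach2 with small Maf partners, was present in 0 of the 10 and in 0.353% of all windows. GGAAA was present in 9 of the 10, Il22 included, and in 55.6% of all windows. The Il4 window holds 5 copies and the Il13 window 4, where at least 5 copies occur in 0.39% and at least 4 in 1.59% of all windows. AGATAA, a core read by GATA factors, was present in those of Il13, Il22 and Csf2 and in 9.99% of all windows. A match describes letters only, since no binding was measured here and distant enhancers were not searched.

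The array background was taken from 1027 olfactory receptor genes, which are not known to be transcribed in T cells. Their means over the 6 arrays ran from 1.76 to 6.94 with a median of 2.94, and a member was called near background where its mean was at or below their 95th percentile of 4.50. Probe sets differ in base composition, so this limit is rough and ranks no cytokine against another. By it, 5 of the 8 measured members (Ifng, Il2, Il5, Il17a and Il21) were near background and 3 (Il4, Il13 and Csf2) above it. The share of olfactory receptor genes at or below the mean of Il13, 6.41, was 99.9%. For Csf2, with a mean of 5.27, it was 98.8%. Il4 lay just above the limit at 4.67 and Il21 just below it at 4.47. Each array was also set against the 95th percentile of its own olfactory receptor genes. Il13 and Csf2 exceeded it on all 6 arrays and Il4 on 5. Ifng and Il21 exceeded it on 1 wildtype array each, and Il2, Il5 and Il17a on 0 arrays.

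**Figure D1:**
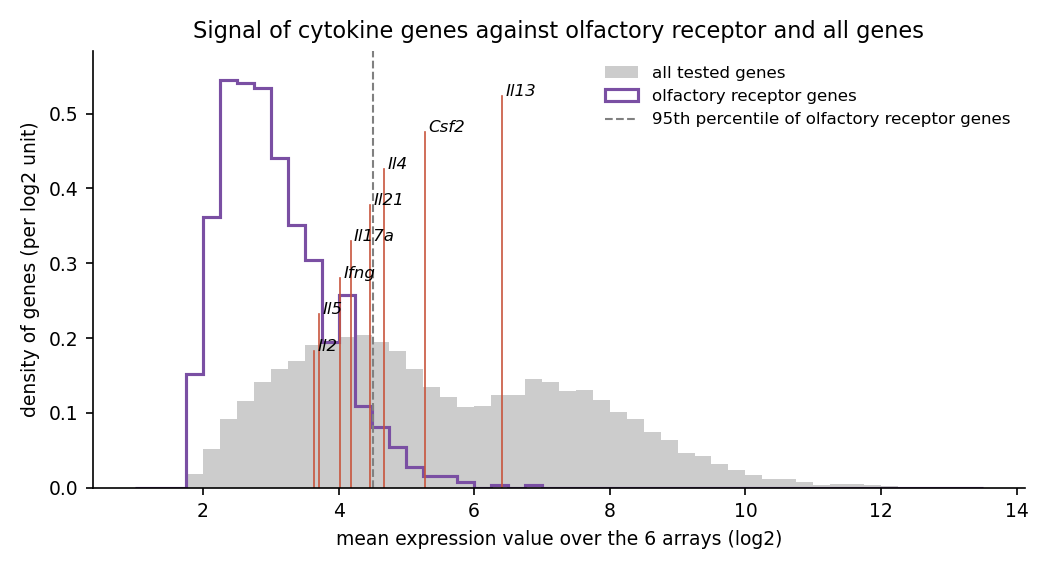
Histograms of the mean expression value over the 6 arrays (log2) for all 19938 tested genes and for the 1027 olfactory receptor genes, as density of genes per log2 unit, with red lines at the 8 measured cytokine genes and a dashed line at 4.50. Il13 at 6.41 lies beyond nearly all olfactory receptor genes, and 5 of the 8 lie left of the dashed line.

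None of the 8 measured cytokine genes passed the test in knockout against wildtype thymocytes. By limma, with p adjusted over all 19938 genes and a threshold of 0.05, 0 of 8 rose and 0 of 8 fell, where 0.351% of all genes were called higher and 0.216% lower. Before adjustment, 2 members (Il13 and Csf2) were higher and 1 (Il5) lower at p under 0.05, against 3.04% and 3.87% of all genes. The median difference was -0.04 on the log2 scale over the 8 members and -0.01 over all genes, with 4 estimates above 0 and 4 below. The knockout values lay wholly above the wildtype values for 3 members (Il4, Il13 and Csf2), against 5.13% of all genes, and wholly below them for 1 (Il5), against 6.57%. These 3 members are also the 3 above array background at the limit used. At the 90th percentile of olfactory receptor genes Il17a and Il21, which were not higher, would be above it too, and at the 99th percentile Il13 alone. In bulk samples a change in the share of cells that transcribe a gene and a change in RNA per cell cannot be told apart.

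**Figure D2:**
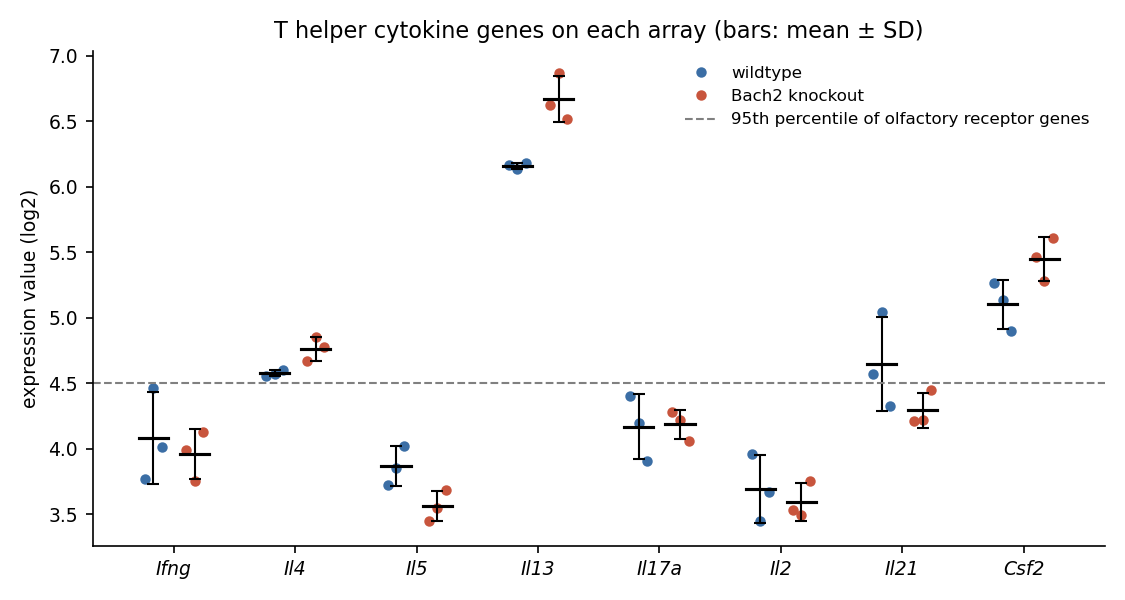
Expression values (log2) of the 8 measured cytokine genes, 1 point per array, 3 wildtype (blue) and 3 Bach2 knockout (red), with mean and SD in black and a dashed line at the background limit of 4.50. Knockout points lie wholly above wildtype points for Il4, Il13 and Csf2 and wholly below them for Il5.

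Among the type 2 genes, Il13 encodes interleukin 13, which drives mucus production and alternative macrophage activation. It was at 6.17, 6.13 and 6.18 in wildtype and at 6.62, 6.87 and 6.52 in knockout replicates 1 to 3. Each knockout array was above each wildtype array, and the wildtype arrays hardly differed from one another. The mean was 6.16 ± 0.02 in wildtype and 6.67 ± 0.18 in knockout samples (SD, n = 3 each), a difference of 0.51 ± 0.11 (limma standard error) or 1.42-fold with a 95% interval of 1.21-fold to 1.68-fold. Its unadjusted p in limma was 0.000816 and its adjusted p = 0.0961, with 168 genes at a smaller p, so it did not pass. Of all tested genes, 0.722% were higher by at least as much, and among the 1027 olfactory receptor genes, which are dimmer, 0 were higher and 2 lower by at least as much. Differences near background are understated, so the olfactory count cannot gauge how unusual that of Il13 is. The estimate stayed above 0 in all 16 alternative fits, at 0.41 to 0.59, and passed in 0 of them (adjusted p from 0.0537 without dim genes to 0.557 without moderation).

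Il4 encodes interleukin 4, the cytokine that induces type 2 differentiation and switching of B cells to IgE. It was at 4.56, 4.57 and 4.60 in wildtype and at 4.67, 4.85 and 4.77 in knockout samples. The groups did not overlap, but the whole range of the 6 values lies close to the background limit. The difference was 0.19 ± 0.09, or 1.14-fold with a 95% interval from 0.985-fold to 1.31-fold (limma, adjusted p = 0.794). Il5 encodes interleukin 5, the growth and survival factor of eosinophils, and was near background. Its values were 3.72, 3.85 and 4.03 in wildtype and 3.45, 3.55 and 3.69 in knockout samples. The knockout arrays were thus the lower ones, opposite in sign to the other type 2 members, with a difference of -0.30 ± 0.11 (adjusted p = 0.544). Its 95% interval, 0.683-fold to 0.962-fold, does not reach above 1. Of the 1027 olfactory receptor genes, 79 had knockout values wholly below wildtype values and 25 wholly above. Over all 19938 genes the counts were 1309 (6.57%) below and 1022 (5.13%) above. Whether background signal had a part in the difference of Il5 was not tested.

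Csf2 encodes the granulocyte-macrophage colony-stimulating factor GM-CSF, which activates myeloid cells. It was at 5.27, 5.14 and 4.90 in wildtype and at 5.46, 5.28 and 5.61 in knockout samples. The groups were separate by a narrow margin, since the lowest knockout array exceeded the highest wildtype array by 0.01. The difference was 0.35 ± 0.13, or 1.27-fold with a 95% interval of 1.05-fold to 1.54-fold (limma, adjusted p = 0.533). It was between 0.25 and 0.43 in the 6 fits that each left out 1 array, and passed in 0 of them.

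The type 1 cytokine gene Ifng, which encodes interferon gamma, was at 3.77, 4.46 and 4.02 in wildtype and at 3.99, 3.75 and 4.13 in knockout samples. The groups overlapped, and the highest value was a wildtype one. The difference was -0.12 ± 0.17, with a 95% interval of 0.706-fold to 1.19-fold (limma, adjusted p = 0.985). Il17a, which encodes IL-17A, was at 4.40, 4.20 and 3.91 in wildtype and at 4.28, 4.22 and 4.06 in knockout samples, again overlapping. Its difference was 0.02 ± 0.13, with a 95% interval of 0.826-fold to 1.24-fold (adjusted p = 0.998).

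Il2 encodes interleukin 2, the growth factor of activated T cells on which regulatory T cells also depend. It was at 3.96, 3.45 and 3.67 in wildtype and at 3.53, 3.49 and 3.76 in knockout samples, below the background limit throughout. The difference was -0.10 ± 0.14, with a 95% interval of 0.755-fold to 1.16-fold (limma, adjusted p = 0.985). Il21, which encodes interleukin 21 and is the next tested gene to Il2 on chromosome 3, was at 4.57, 5.04 and 4.33 in wildtype and at 4.22, 4.22 and 4.45 in knockout samples. Wildtype replicate 2 stood highest and wildtype replicate 3 lay within the knockout range. The difference was -0.35 ± 0.16, with a 95% interval of 0.607-fold to 1.01-fold (adjusted p = 0.76). It was -0.16 without wildtype replicate 2 and -0.51 without wildtype replicate 3, so its size rested on single arrays.

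These intervals bound what the arrays could have missed on their own scale. The upper ends were 1.16-fold for Il2, 1.19-fold for Ifng, 1.24-fold for Il17a and 1.01-fold for Il21, and Il5 had its upper end below 1. Each interval is for 1 gene, without adjustment for the number of genes. Near background an array understates a fold change in RNA, because part of the signal does not come from the transcript.

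**Figure D3:**
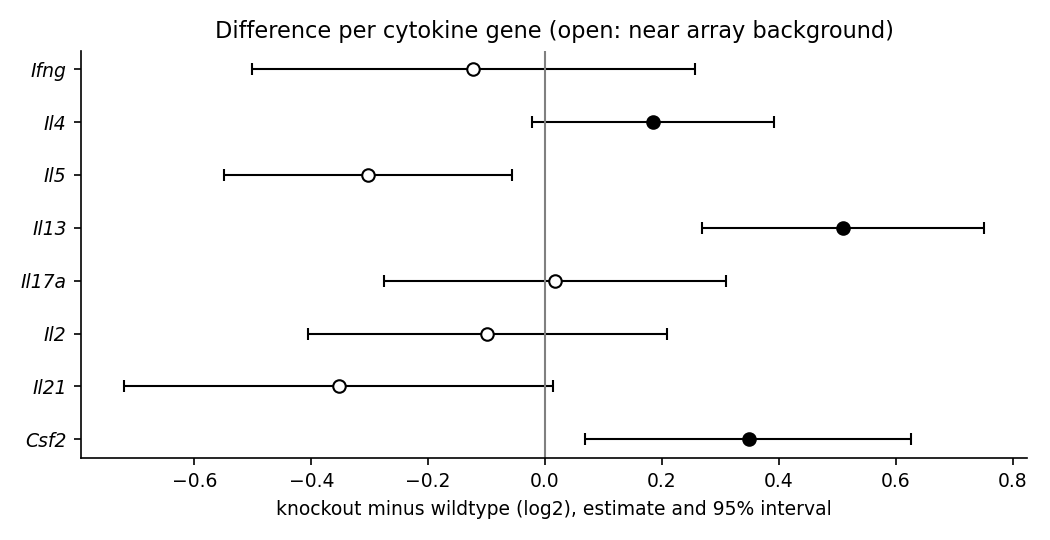
Knockout minus wildtype difference (log2) of the 8 measured cytokine genes, as limma estimate with its 95% interval, with 3 arrays per genotype. Filled points are the 3 members above array background, with Il13 highest at 0.51, and open points are the 5 members near it.

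Il4, Il13, Il5 and Csf2 lie in one stretch of chromosome 11, and the 13 tested genes from Kif3a, the neighbour of Il4, to Il3, the neighbour of Csf2, were read in order. The genes between the members had estimates on both sides of 0. Rad50, a DNA repair gene that lies between Il13 and Il5 and holds control elements of the type 2 genes, was at 7.36 in wildtype and 7.21 in knockout samples, a difference of -0.16 (limma, adjusted p = 0.901). Irf1, an interferon-induced transcription factor next to Il5, differed by -0.09 (adjusted p = 0.985), and Kif3a, a kinesin motor, by 0.18 (adjusted p = 0.887). Il3, which encodes a growth factor of mast cells and basophils beside Csf2, was near background at 2.85 in wildtype and 2.82 in knockout samples. In all, 0 of the 13 passed by limma, 3 had an unadjusted p under 0.05 and these were the members Il13, Il5 and Csf2. Over all 8 members the nearest tested genes on either side comprised 11 genes outside the set, 6 of them above background, and 0 of these 11 passed (1 at an unadjusted p under 0.05, Mir206 beside Il17a).

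**Figure D4:**
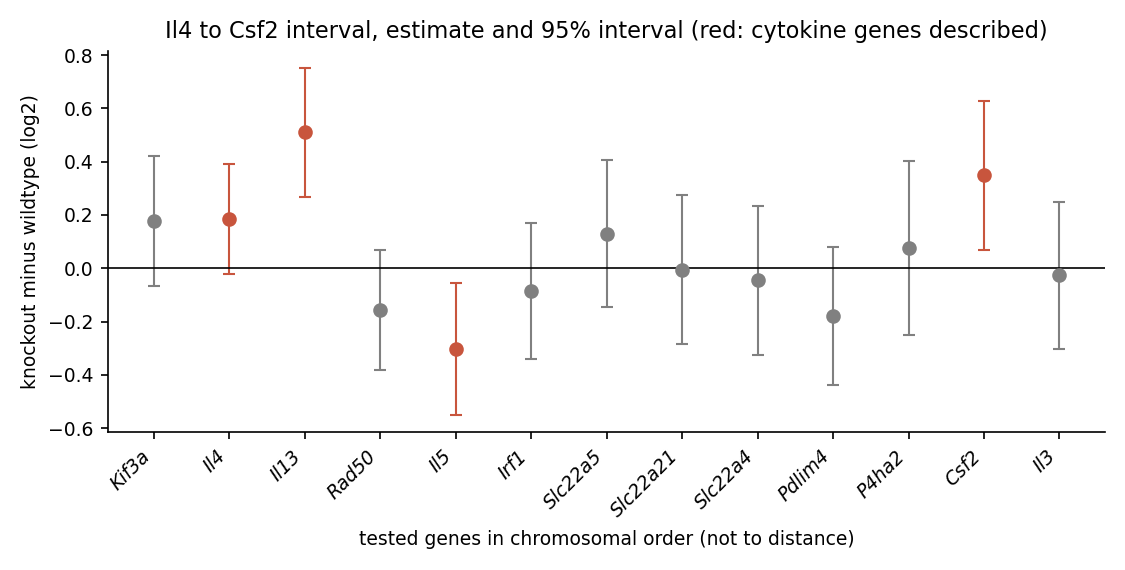
Knockout minus wildtype difference (log2, limma estimate with 95% interval) of the 13 tested genes from Kif3a to Il3, placed in chromosomal order and not to distance. The cytokine genes described are red, and Il13 at 0.51 and Csf2 at 0.35 stand above 0 while Il5 at -0.30 stands below it.

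The patterns most like the members above background were sought among 12261 other genes above background, by Pearson's r over the 6 arrays, as a description. Il13 was closest to Tmub2 (r = 0.994), Atp8a2 (0.986) and Aplf (0.986), Il4 to Gpatch3 (0.992), Zfp94 (0.988) and Med20 (0.977), and Csf2 to Tnfaip8 (0.986), Sft2d1 (0.985) and Kctd6 (0.978). None of these 9 genes passed the test, and each value is among the best 3 of 12261 comparisons over only 6 arrays. Between the members, Il4 and Il13 had r = 0.911 and Il5 and Il13 r = -0.793. All points share the arrays and the 2 genotypes.

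The members were set beside 3 lists of related genes. Of 30 other cytokines of T cells, 29 were measured and 18 lay above background. By limma 0 rose and 0 fell over all genes, with 2 higher and 4 lower at an unadjusted p under 0.05, and the median difference was -0.04. The 2 with the smallest p were Penk and Ebi3. Penk, which encodes the opioid peptide precursor proenkephalin, was at 7.86 ± 1.25 in wildtype and 5.61 ± 0.26 in knockout samples (SD, n = 3 each; adjusted p = 0.0923). Ebi3, a subunit shared by IL-27 and IL-35, was at 5.32 ± 0.40 and 4.53 ± 0.24 (adjusted p = 0.166). Tnf, which encodes tumour necrosis factor and was chosen for naming once its values were known, had 7.93, 8.11 and 8.16 in wildtype and 8.30, 8.32 and 8.29 in knockout samples. Its difference of 0.24 did not pass (adjusted p = 0.635), although the groups were separate and the level was far above background.

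Of the 19 genes for receptors of the 10 cytokines, 18 were measured and 12 lay above background. Il2ra, which encodes the high-affinity chain for interleukin 2 and is a marker of regulatory T cells, fell from 8.04 ± 0.77 to 6.12 ± 0.28 (SD, n = 3 each), a difference of -1.93 (limma, adjusted p = 0.0245). Among the 6 fits with 1 array removed its call held in 1, the one without wildtype replicate 1, and the adjusted p in the other 5 was 0.0548 (without knockout replicate 1), 0.0843 (knockout replicate 3), 0.0865 (wildtype replicate 2), 0.108 (knockout replicate 2) and 0.133 (wildtype replicate 3). No other receptor passed, and at an unadjusted p under 0.05 there were 1 higher (Ifngr1) and 2 lower (Il2ra and Il2rb). Il2rb was at 9.11 ± 0.44 in wildtype and 8.35 ± 0.11 in knockout samples, a difference of -0.76 (limma, adjusted p = 0.181). Ifngr1, a chain of the interferon gamma receptor that was likewise chosen with its values known, was at 8.84 ± 0.17 and 9.18 ± 0.08, a difference of 0.34 (adjusted p = 0.436).

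Of 29 transcription factors of helper lineages and cytokine genes, 27 were measured, all 27 lay above background, and by limma 0 passed over all genes (1 higher and 6 lower at an unadjusted p under 0.05). The 2 with the smallest p were Ahr and Eomes. Ahr, a ligand-activated factor that promotes Il22 transcription, was at 5.96 ± 0.08 in wildtype and 5.44 ± 0.10 in knockout samples (SD, n = 3 each; adjusted p = 0.0552). Eomes, which promotes Ifng transcription, was at 5.46 ± 0.31 and 4.76 ± 0.15 (adjusted p = 0.106). Gata3, the lineage factor of type 2 cells and likewise chosen with its values known, was at 9.49 ± 0.15 and 9.23 ± 0.08 (difference -0.26, adjusted p = 0.653). Runx3, also named with its values known, was at 8.24 ± 0.21 and 7.68 ± 0.11 (difference -0.55, adjusted p = 0.1125). Batf and Fosl2 were the others lower at an unadjusted p under 0.05. The 1 member higher at an unadjusted p under 0.05 was Irf4, a factor induced by antigen receptor signals, with 6.83 ± 0.36 and 7.57 ± 0.19 (adjusted p = 0.143). Tbx21, the type 1 lineage factor, was at 5.13 ± 0.09 and 5.09 ± 0.10 (adjusted p = 0.998).

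**Figure D5:**
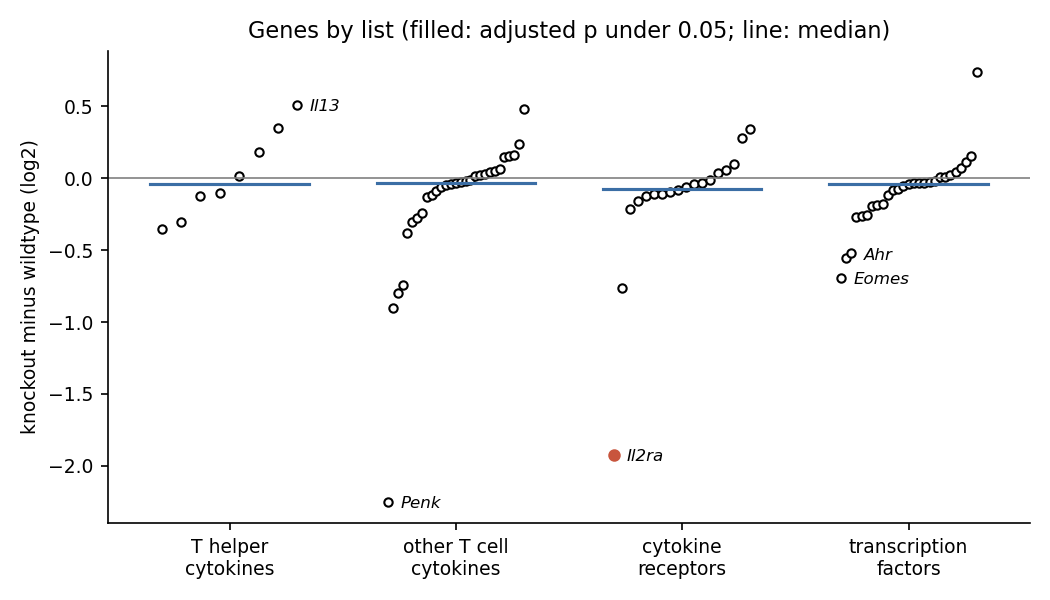
Knockout minus wildtype differences (log2) of the 8 measured T helper cytokine genes, 29 other T cell cytokines, 18 receptors of the cytokines and 27 transcription factors, 1 point per gene, with the median as a blue line. The filled point is Il2ra at -1.93, the 1 gene of the 4 groups with an adjusted p under 0.05.

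Cell types that could carry type 2 cytokine transcripts into the sort were read from marker lists. Of 9 markers of mast cells, basophils and eosinophils all 9 were measured and 2 (Kit and Siglecf) lay above background. The list mean was 3.52 to 3.66 in wildtype and 3.52 to 3.56 in knockout samples. Of 8 markers of innate lymphoid and natural killer cells 7 were measured and 4 lay above background (Il7r, Id2, Gzma and Prf1, of which thymocytes also express Il7r and Id2), with list means of 5.69 to 5.85 in wildtype and 5.78 to 5.90 in knockout samples. Il1rl1 was not measured. The natural killer receptor genes Ncr1 and Klra8 lay between 2.42 and 3.14 on the 6 arrays. Of the 9 markers of natural killer T and innate-like T cells, all 9 were measured and 7 lay above background, with list means of 5.69 to 5.79 in wildtype and 5.55 to 5.62 in knockout samples. Of these 9, 0 passed by limma (1 higher and 3 lower at an unadjusted p under 0.05), with Il2rb at -0.76, Cd160 at -0.44 and Klrk1 at -0.29 but Zbtb16 at 0.03, Cxcr6 at 0.08 and Cd44 at 0.27. Of 7 gamma-delta T cell markers 4 were measured and 2 lay above background, with list means of 4.69 to 4.76 and 4.49 to 4.67.

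In the regulatory T cell list the genotypes were apart. Of its 7 markers 4 fell (Foxp3, Il2ra, Ikzf2 and Lrrc32), and the list mean was 7.81 to 8.61 in wildtype and 6.87 to 7.04 in knockout samples. The list means of natural killer T and innate-like T cells and of gamma-delta T cells, given above, were also lower in knockout samples without overlap. Their gaps were smaller. With each array removed in turn, Foxp3 passed in 6 of 6, Ikzf2 in 5 (adjusted p = 0.0617 without wildtype replicate 3) and Lrrc32 in 4 (0.0657 without wildtype replicate 3 and 0.0541 without knockout replicate 2). With all probe sets tested these 4 calls were lost (adjusted p = 0.0743 for Foxp3, 0.173 for Ikzf2, 0.223 for Lrrc32 and 0.307 for Il2ra), as they were without moderation of the spread (0.393, 0.494, 0.571 and 0.616). Of 8 measured macrophage and monocyte markers of 9, 4 lay above background and Lyz2, the lysozyme of myeloid cells, rose by 1.39 (adjusted p = 0.0256). The other 7 did not pass and had estimates of both signs, among them C1qa at 0.42, Cd68 at 0.31, Csf1r at 0.08 and Itgam at -0.33, and the median difference was 0.05. With each array removed in turn it did not pass in 4 of 6 fits, with adjusted p of 0.0822 (without wildtype replicate 2), 0.153 (wildtype replicate 3), 0.0821 (knockout replicate 1) and 0.119 (knockout replicate 2), nor with all probe sets tested (0.298) or without moderation (0.616). That list mean was 4.28 to 4.48 in wildtype and 4.45 to 4.84 in knockout samples, which overlap. The double-positive and CD8 list, with 7 of 8 markers measured, was at 6.62 to 6.87 and 6.70 to 7.76, overlapping and highest on knockout replicate 3. Its median difference was 0.37, and 0 of the 7 passed by limma. At an unadjusted p under 0.05, 2 were higher (Rag1 by 1.27 and Ptcra by 0.33) and 0 lower. For B cells 3 of 4 markers were measured and 2 lay above background, with list means of 3.89 to 4.34 and 4.06 to 4.22. The part of any of these cells in the values of Il13, Il4 or Csf2 was not tested.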

How the data were processed

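The deposited table holds log2 values for each probe set, made with RMA and Partek (no versions named) per the submitters' processing notes. The log2 scale was inferred from their range, 1.10 to 13.2, and the array medians were 4.93 to 4.97. The genome build was not given in the sources used here. Since RMA aligns the arrays' distributions, any shift shared by all genes is hidden. The number of arrays, 3 per group, limits the precision.

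Symbols came from the platform annotation: of 35556 probe sets 21789 had 1 symbol, 1621 several and 12146 none listed, and those with 1 symbol gave 19938 genes, each taken as its brightest probe set. The design text says that all 6 samples came from separate mice. Knockout was compared with wildtype by lmFit and eBayes of limma 3.58.1 in R 4.3.3, two-sided, adjusted by Benjamini-Hochberg across all tested genes, and the procedure was tested on simulated data. Same-numbered arrays deviated together with r of 0.21, 0.11 and -0.07, so the numbers were not taken as pairs. Gene order came from the start positions in a RefSeq table of GRCm38.p6. Named genes were all members, Bach2, the members of each list past the test or else the 2 with the smallest p, the nearest tested neighbours and the 3 most alike genes. Others were named outside this rule with their values known. Among them were Tnf, Ifngr1, Il2rb, Gata3, Runx3, Irf4, Tbx21, Il10, Il17f, Il7r and markers that did not pass. The members and lists were chosen with earlier results of these data known. Alternatives were other priors, no moderation, no dim genes, other scalings, array weights, other probe set rules, the replicate number as a block, leaving out each array and other background limits. Plots were made with matplotlib 3.10.9 (Python 3.11.15).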

Additional observations from a re-analysis of the deposited data

How the results depend on the processing

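Of the 8 measured cytokine genes, 0 passed in either direction under all 16 alternative fits. Il4, Il13 and Csf2 kept estimates above 0 and Il5 and Il21 below 0 in every fit that held them. The signs of 3 genes near background depended on single arrays. In the fits that left out an array Ifng ran from -0.281 to 0.068 (above 0 without wildtype replicate 2), Il17a from -0.112 to 0.134 (below 0 without wildtype replicate 3, and at -0.03 without knockout replicate 1) and Il2 from -0.222 to 0.037 (above 0 without wildtype replicate 1). The count of members near background was 3 with the 90th percentile of olfactory receptor genes as limit, 7 with their 99th or with the 95th percentile of 18 tissue-restricted genes, 6 with the median of all tested genes, and 4 to 5 when an array was left out, since Il17a, Il21, Il4 and Csf2 lie close to these limits. Leaving out dim genes gave no value for the 6 members other than Il13 and Csf2.

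Over all genes, 70 were higher and 43 lower. Without moderation of the spread there were 1 and 0, with all probe sets tested 29 and 8, and with a prior that follows expression level 100 and 78. With 1 array removed, 29 to 82 genes were higher and 18 to 66 lower, the fewest of each without wildtype replicate 3. With the replicate number as a block, 79 were higher and 55 lower and Il13 had an adjusted p of 0.124, so that the block changed no call among the members. Fold changes of members near background are limited by signal over background.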

Other observations

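The 2 probe sets annotated to both Il22 and Iltifb were at 3.32 to 3.61 in wildtype and 3.29 to 3.83 in knockout samples, below the background limit of 4.50 on all 6 arrays. Their knockout minus wildtype differences were 0.12 each on the log2 scale (limma over all 35556 probe sets, adjusted p = 0.995 and 0.994). These probe sets cannot tell the copies apart.

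Cytokine genes outside the 10 and near background included Il10, at 3.00 ± 0.22 in wildtype and 2.87 ± 0.13 in knockout samples (SD, n = 3 each; limma, adjusted p = 0.975), an interleukin that restrains inflammation. Il17f, the neighbour and relative of Il17a, lay at the background limit, at 4.52 ± 0.06 and 4.55 ± 0.06 (adjusted p = 0.998). Il7r, a receptor chain that thymocytes need to survive and mature, had 3 knockout values of 11.12, 11.13 and 11.22 above 3 wildtype values of 10.59, 10.78 and 10.64, higher by 0.49 without passing the test (adjusted p = 0.0706). These 3 genes were named after their values were seen.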
